A study of Mus musculus with 54 samples.

Results

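The genes described here are 10 regulators of the primitive streak and early mesoderm, namely T (Brachyury), Mixl1, Mesp1, Gsc, Tbx6, Evx1, Wnt3, Lhx1, Msgn1 and Hand2, out of 21938 protein-coding genes in the GENCODE M21 annotation of the mouse genome build GRCm38. They were listed by name, and the rule uses no measured value. For each gene, every ATAC peak whose centre lay within 50 kb of one of its annotated transcription start sites (TSSs) was taken from the merged list, which gave 91 of 113737 peaks, and none of the 60 distal peaks lay in the windows of 2 of the genes. A peak is called the TSS peak of a gene when its centre lies within 1 kb of a TSS of that gene, and a peak is called distal (>1 kb from TSS) when its centre lies farther than that from every annotated TSS, including those of non-coding transcripts.

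ZHBTc4 mouse embryonic stem (ES) cells were profiled by ATAC-seq, in which the transposase Tn5 inserts adapters into accessible DNA. Dox was present in all 54 samples and shut off the untagged OCT4 of this line, so that the OCT4 in these cells was mCherry-OCT4-AID, a fusion that is degraded when indole-3-acetic acid (IAA) is added. The fusion was expressed at a low level from the PGK promoter, together with the ubiquitin ligase Tir1 and the fluorescent cell cycle reporter YPet-MD, all from lentiviral vectors. The line was a sorted population and not described as 1 clone, and was grown with serum, LIF, the GSK3 inhibitor CHIR99021 and the MEK inhibitor PD184352. The 24 groups comprised Early G1, Late G1, S and Late S/G2 cells after 26 hr of dox with or without 500 nM IAA for the last 2 hr (22 samples), the same 4 phases at 31 hr of dox, with or without 2.5 hr of IAA that was washed out for 4.5 hr (16 samples), and unsorted cells at 34 hr of dox with 0 or 30 min to 10 hr of IAA (16 samples). The peaks of all these samples had been merged into 1 list of positions without any signal. No value belongs to a sample, a phase or an IAA time, and the 10 genes could not be compared between conditions. For the same reason there are no replicates, no spread between samples and no test, and the values of the 10 genes are set beside those of the 15535 protein-coding genes with a TSS peak, called the reference genes here. The label of the cells was checked by the presence of TSS peaks at marker genes. All 6 ES cell markers examined (Esrrb, Nanog, Pou5f1, Sox2, Tdgf1 and Zfp42) had one. So did 2 of 3 neuronal, 2 of 3 blood and 1 of 3 heart muscle markers but 0 of 3 liver markers, and a TSS peak in this list is therefore not specific to genes of ES cells.

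The primitive streak is the structure of the gastrulating embryo through which epiblast cells pass to form mesoderm and endoderm. WNT and Nodal signals induce it, T-box and homeodomain factors such as T, Mixl1 and Gsc mark it, and bHLH and further T-box factors such as Mesp1, Msgn1 and Tbx6 then act in the mesoderm that leaves it. In ES cells many developmental regulators of this kind are silent or weakly expressed while their CpG-rich promoters are accessible, and accessibility at a TSS is therefore not a measure of expression.

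A TSS peak was present at 9 of the 10 genes, against 70.8% of all protein-coding genes, and Tbx6 was the gene without one. Shown here are the promoters of Gsc and Msgn1, whose TSS peaks had the highest and the lowest CpG content, and that of Tbx6. The Gsc stretch lay only partly in its TSS peak, and the Msgn1 and Tbx6 stretches lay outside any peak. The CpG content of the peaks can therefore not be read from these stretches. CpG content is expressed as the observed/expected ratio (o/e), the number of CpG dinucleotides divided by the number that the C and G content of the sequence would give by chance. The sequences are from RefSeq on GRCm38.p6, with promoters of 9 of the 10 genes used here and that of Mixl1 not used. They run 5′ to 3′ on the strand of the gene and end at the last base before the annotated transcript, with every CpG in capitals.
Gsc, chr12:104473331-104473486, minus strand: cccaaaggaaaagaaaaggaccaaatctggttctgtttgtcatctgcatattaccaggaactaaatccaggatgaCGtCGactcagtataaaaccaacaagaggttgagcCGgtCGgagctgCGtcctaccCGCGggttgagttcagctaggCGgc
Msgn1, chr12:11208973-11209198, minus strand: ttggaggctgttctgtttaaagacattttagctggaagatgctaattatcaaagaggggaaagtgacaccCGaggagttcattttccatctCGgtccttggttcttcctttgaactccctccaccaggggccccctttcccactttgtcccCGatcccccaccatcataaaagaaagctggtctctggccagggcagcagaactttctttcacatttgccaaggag
Tbx6, chr7:126781233-126781482, plus strand: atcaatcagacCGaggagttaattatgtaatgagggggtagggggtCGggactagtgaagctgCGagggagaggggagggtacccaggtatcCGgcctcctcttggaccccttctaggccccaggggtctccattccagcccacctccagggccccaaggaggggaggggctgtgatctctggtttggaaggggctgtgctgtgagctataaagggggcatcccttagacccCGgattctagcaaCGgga
The Gsc stretch of 156 bases held 8 CpGs, the Msgn1 stretch of 226 bases held 3, and the Tbx6 stretch of 250 bases held 6. Over the full 250 bases before the RefSeq start, Lhx1 had 26 CpGs, Gsc and Wnt3 had 22 each, Hand2 had 15, T had 14, Evx1 had 10, Tbx6 had 6, Msgn1 had 4 and Mesp1 had 2, beside a median of 6 over 32851 mouse promoters.

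**Figure D1:**
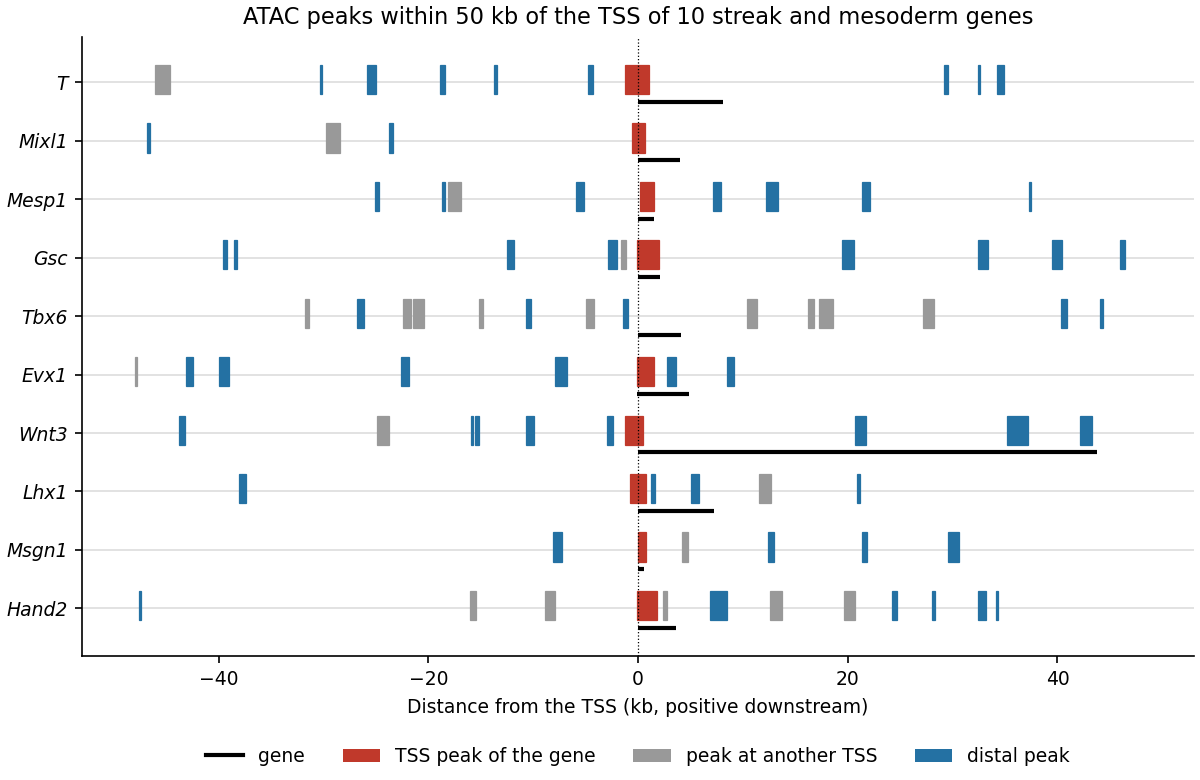
Positions of all ATAC peaks in the 50 kb windows, 1 row per gene, as distance in kb from the TSS nearest to the TSS peak (for Tbx6, from its only TSS), with the direction of transcription to the right. Red bars are the TSS peak of the gene, grey bars peaks at the TSS of another gene or transcript, blue bars distal peaks and black lines the gene itself, and bar width is peak width. T has 8 distal peaks with a gap downstream of its TSS peak, Mixl1 has 2 on its upstream side alone, and Tbx6 has 9 grey bars and no red one.

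The TSS peaks of these genes were wide. The median width of the 9 TSS peaks was 1602 bp, beside 1172 bp over the reference genes, and 8 of the 9 were wider than that reference median. Among the reference genes whose TSS peak had the base composition of a CpG island, the median was 1277 bp, and 7 of the 9 were wider than this too. The TSS peak of T, the T-box factor needed for posterior mesoderm and notochord, was the widest at 2299 bp (chr17:8433147-8435445), and 98.1% of the reference genes had a narrower one. It was followed by Gsc, a homeodomain repressor of the anterior streak and organizer, with 2112 bp (chr12:104471290-104473401), and by Hand2, a bHLH factor of lateral mesoderm and heart, with 1968 bp (chr8:57320845-57322812), wider than 96.6% and 94.6% of the reference genes. Wnt3, the ligand that starts streak formation, had a TSS peak of 1666 bp (chr11:103772920-103774585), Evx1, a homeodomain factor of the posterior streak, one of 1602 bp (chr6:52313456-52315057), and Lhx1, a LIM homeodomain factor of the organizer and intermediate mesoderm, one of 1558 bp (chr11:84524781-84526338). These 3 widths exceeded those of 87.0%, 84.3% and 82.1% of the reference genes. Mesp1, a bHLH factor of early cardiac mesoderm, stood nearer to the middle with 1357 bp (chr7:79792288-79793644), as did Mixl1, a homeodomain factor of mesendoderm, with 1250 bp (chr1:180696398-180697647), at 68.5% and 58.1%. The only narrow TSS peak was that of Msgn1, a bHLH factor of presomitic mesoderm, with 763 bp (chr12:11208200-11208962), and 18.2% of the reference genes had a narrower one.

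CpG content varied far more among the genes than their GC content. Of the 9 TSS peaks, 7 had CpG island composition (GC above 50%, CpG o/e above 0.6 and a width of at least 200 bp), beside 65.2% of the TSS peaks of the reference genes, and the 2 that did not were those of Evx1 and Msgn1. The median CpG o/e was 0.743, beside 0.686 over the reference genes, and 5 of the 9 lay above that value. The direction of this difference depended on the settings, as the median was 0.641 beside 0.689 with a TSS limit of 500 bp and 0.652 beside 0.703 over 500 bp on each side of the TSS. The order-statistic interval of the median of 0.743 ran from 0.576 to 0.821, the values of Evx1 and Hand2. It describes the spread over 9 genes listed by name and no uncertainty about other genes. Gsc had the highest CpG o/e at 0.861 with 185 CpGs in its peak, followed by Hand2 at 0.821 with 165 and Lhx1 at 0.808 with 115. Mixl1 and Mesp1 lay at 0.750 and 0.743, and T and Wnt3 just above the island limit at 0.641 and 0.616. Evx1 fell just short of it at 0.576 with 84 CpGs, whereas Msgn1 stood apart at 0.353 with 23 CpGs. GC content ran only from 58.5% in Msgn1 to 64.9% in Mesp1, with a median of 60.5% beside 59.1% over the reference genes, and 8 of the 9 lay above that value. Width and CpG content did not rank the genes alike, since T had the widest TSS peak and a CpG o/e below the reference median.

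**Figure D2:**
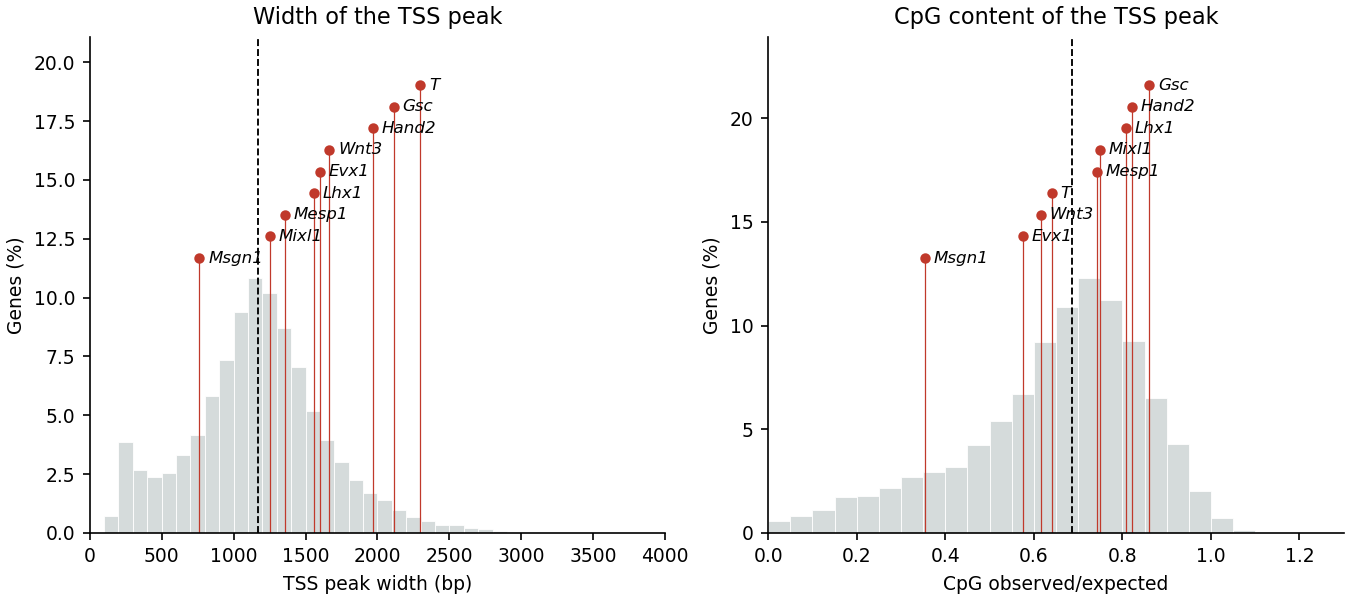
Width in bp (left) and CpG observed/expected ratio (right) of the TSS peak of 9 genes, drawn as labelled red stems over the distribution of the 15535 reference genes in grey, whose y axis is the percentage of genes per bin. Dashed lines are the reference medians of 1172 bp and 0.686, stem height only separates the labels, and the last width bin also holds all wider peaks. All stems but that of Msgn1 lie to the right of the dashed line for width, whereas for CpG content 4 lie to its left and 5 to its right.

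The position of the TSS peak set several of these genes apart from most others. The centre of the TSS peak lay 984 bp downstream of the TSS in Gsc, 846 bp in Hand2, 822 bp in Mesp1, 705 bp in Evx1 and 391 bp in Msgn1, whereas the median over the reference genes was 18 bp downstream and 90% of them lay at 279 bp or less. The values of Gsc, Hand2, Mesp1 and Evx1 were higher than those of 99.9%, 99.5%, 99.4% and 98.7% of the reference genes, and that of Msgn1 was higher than 94.3%. By the rule for TSS peaks no centre could lie more than 1 kb away, so these shares depend partly on that limit. The other 4 genes showed no such downstream shift, and Wnt3 was shifted the other way, with only 2.94% of the reference genes lower. The centre lay 11 bp downstream of the TSS in Mixl1, 25 bp upstream in Lhx1, 127 bp upstream in T and 397 bp upstream in Wnt3, so that the wide peak of T extended about as far upstream as downstream while that of Wnt3 lay mainly before the gene. Coverage of the gene by peaks of any kind was also measured. Peaks took up 98.4% of the 613 bp of Msgn1, 96.2% of the 2122 bp of Gsc, 87.7% of the 1548 bp of Mesp1, 62.3% of the 3651 bp of Hand2 and 49.2% of the 4881 bp of Evx1, beside 26.6% for Lhx1, 16.0% for Mixl1, 12.7% for T, 10.7% for Wnt3 and none of Tbx6. The TSS peak alone took up 50.1% of Hand2 and 32.0% of Evx1, and a separate peak in each gene made up the rest. Short genes are covered more easily, and among reference genes with 0.8 to 1.2 times the span of each gene the median coverage was 38.8% for genes like Gsc, 50.0% like Mesp1, 21.6% like Hand2, 16.8% like Evx1, 11.9% like Lhx1 and 4.01% like Wnt3. It was 11.1% for genes like T, little below the coverage of T, and 19.96% like Mixl1 and 19.6% like Tbx6, above theirs. Lhx1 and Wnt3, whose TSS peaks were not shifted downstream, were thus covered more than 91.8% and 93.7% of genes of their span, so high coverage was not particular to the genes with a shifted peak. For the 41 genes as short as Msgn1 that median was 100%, so its coverage was not high for its size.

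**Figure D3:**
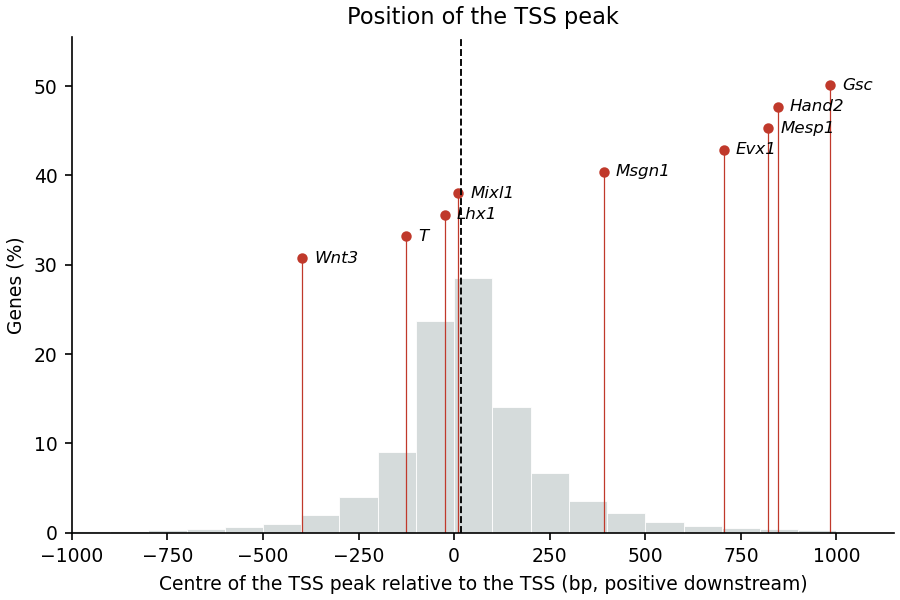
Distance in bp from the TSS to the centre of the TSS peak, positive downstream, for 9 genes as labelled red stems over the distribution of the 15535 reference genes in grey, whose y axis is the percentage of genes per 100 bp bin. The dashed line is the reference median of 18 bp, and stem height only separates the labels. Evx1, Mesp1, Hand2 and Gsc lie between 705 and 984 bp, in the thin right end of the distribution.

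Because of this shift, the count of TSS peaks depends on how near to the TSS a peak must be. At 500 bp instead of 1 kb, Mesp1, Gsc, Evx1 and Hand2 lost their TSS peak, which left 5 of the 10 genes with one, beside 67.2% of all protein-coding genes. When a peak had to cover a TSS, 7 of the 10 genes had one, beside 67.1% of all protein-coding genes, and the genes lost were Mesp1 and Msgn1. In both, the peak ended just inside the gene, 144 bp short of the GENCODE start in Mesp1 and 10 bp short in Msgn1. RefSeq places the start of Mesp1 198 bp and that of Msgn1 24 bp farther into the gene, and both of those starts lay inside the peak. At Evx1 and Hand2 the peak began shortly before the gene, and it held 16.8% and 55.2% of the 250 bases before the RefSeq start, whereas at T, Wnt3 and Lhx1 all 250 bases were in the peak.

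Tbx6, the T-box factor that directs cells to a paraxial mesoderm fate, had no peak within 1 kb of its TSS. Its gene body held no peak at all, and the nearest peak, of 435 bp (chr7:126780089-126780523), was centred 1177 bp upstream of the TSS in an exon of the neighbouring gene Ypel3 and ended 960 bp before the Tbx6 start. At a limit of 2500 bp this peak would count as the TSS peak of Tbx6, which would give all 10 genes one, beside 74.8% of all protein-coding genes. The 1-kb stretch around the Tbx6 TSS had a CpG o/e of 0.33, as did that around the TSS of Msgn1, below the 0.411 of Mesp1, while the other 7 genes ranged from 0.611 in Evx1 to 0.933 in Gsc. Absence of a peak from this list can mean that no region was called there or that a called region was filtered out, and the depth behind the calls is unknown. The window of Tbx6 was otherwise rich in peaks, with 14 in all, the most of the 10 genes. Of these, 9 lay at the TSSs of other genes, including Mapk3, Gdpd3, Ypel3, Ppp4c, Fam57b and Aldoa, and 5 were distal.

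The distal peaks numbered 60 over the 10 genes, from 2 at Mixl1 to 9 at Wnt3. Wnt3 had 9, T and Gsc had 8 each, Mesp1 had 7, Evx1 and Hand2 had 6 each, Tbx6 and Lhx1 had 5 each, Msgn1 had 4 and Mixl1 had 2. The median was 6 per gene, beside 5 over the reference genes (8 beside 10 in a window of 100 kb, and 4 beside 2 when only distal peaks nearest to the gene were counted), and 6 genes lay above that reference median, 2 at it and 2 below it. Whether these genes had more or fewer distal peaks than the reference genes thus depended on the window and on how peaks were assigned. The distal peaks near the gene were also compared with the surrounding chromosome. Distal peaks were denser within 50 kb of the TSS than in the flanks from 50 to 500 kb on both sides for 9 of the 10 genes, among them Tbx6 and 8 of the 9 with a TSS peak, beside 51.1% of the reference genes. The count was 7 with peaks joined over gaps under 500 bp (51.1% of the reference genes), a TSS limit of 2500 bp (47.3%) or a 100-kb window (53.6%). Other peak filters, TSS choices, windows and flanks gave 8 or 9.

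The contrast was largest at Msgn1, with 40.0 distal peaks per Mb near the gene and 5.56 per Mb in its flanks, a ratio of 7.20 that exceeded those of 99.7% of the reference genes. These are small numbers, 4 distal peaks near the gene and 5 in flanks of 900 kb. T followed with 79.2 against 24.4 per Mb, a ratio of 3.24 that exceeded 96.9% of the reference genes. Evx1 had 60.0 against 31.1 per Mb and Hand2 60.0 against 32.2 per Mb, ratios of 1.93 and 1.86. Wnt3, Lhx1 and Gsc had ratios between 1.31 and 1.37, and Wnt3 and Gsc lay in peak-rich surroundings of 65.6 and 61.1 per Mb. Mesp1 and Tbx6 were barely denser than their flanks, at 70.0 against 65.6 and 50.0 against 46.7 per Mb, a difference of less than 1 peak in a window of this size. Mixl1 ran the other way, with 2 distal peaks within 50 kb and 65.6 per Mb in its flanks, a ratio of 0.305, and 9.39% of the reference genes had a lower one. A further count took, near each gene, only distal peaks whose nearest protein-coding TSS was its own, but all distal peaks in the flanks. By it, 5 of the 10 genes were denser than their flanks, beside 19% of the reference genes. This unequal counting by itself lowers both figures.

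**Figure D4:**
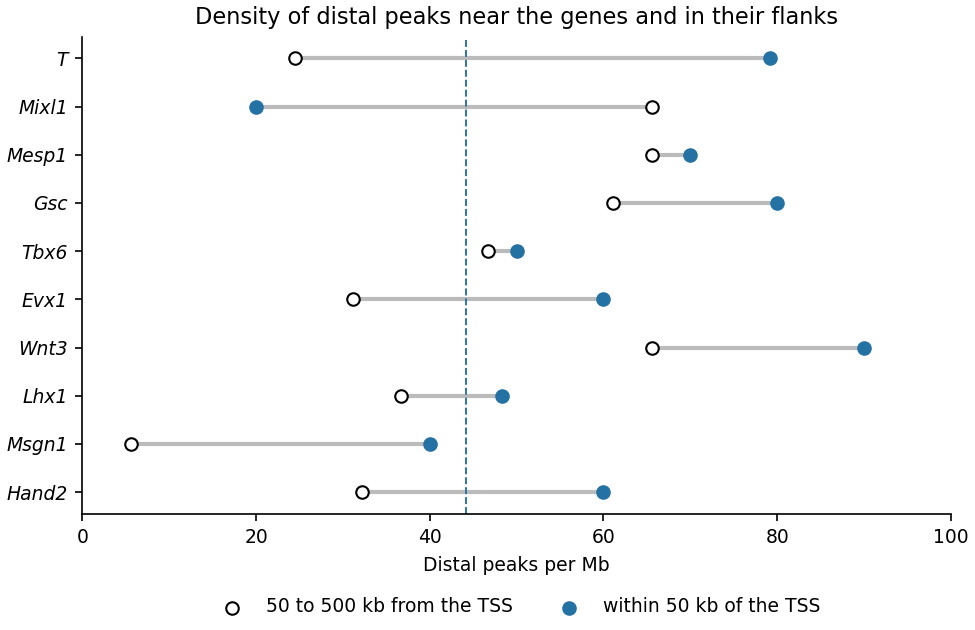
Distal peaks per Mb within 50 kb of the TSS (filled blue) and from 50 to 500 kb away (open) for each of the 10 genes, joined by a grey line. The dashed line is the median of 44.2 per Mb within 50 kb of the reference genes. The filled point lies to the right of the open one for every gene but Mixl1, and the lines are longest for T, Mixl1 and Msgn1.

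The distal peaks were spread evenly over both sides of the TSSs, with 31 upstream and 29 downstream, and 26 lay within 20 kb. Their centres fell between genes in 31 cases, in introns in 19 and in exons in 10, and for 38 of the 60 the nearest protein-coding TSS was that of the gene itself. At T there were 5 upstream and 3 downstream, the nearest 4503 bp upstream (chr17:8429666-8430174) and the widest, of 823 bp, 25397 bp upstream in an intron of the neighbouring gene T2 (chr17:8408615-8409437). The 28171 bp that followed the TSS peak of T held no peak. At Wnt3 the nearest lay 2513 bp upstream (chr11:103771482-103771792), and the widest of all 60, with 1984 bp, lay 36186 bp downstream in an intron of Wnt3 (chr11:103809344-103811327). This intronic peak had CpG island composition with 138 CpGs, and the TSS nearest to it was that of Nsf. On the other side the Wnt3 window reached Wnt9b, which was nearest to 3 of the 9 distal peaks.

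Among the homeodomain genes, the nearest distal peak to Gsc lay 2410 bp upstream (chr12:104475303-104476177) and the widest, of 1131 bp, 19995 bp downstream (chr12:104452770-104453900), and both were nearer to Gsc than to any other protein-coding gene. The nearest distal peak to Evx1 covered part of the gene itself 3187 bp from the TSS (chr6:52316319-52317159), in an exon, and had the highest GC content of the 60 at 72.7%. The widest at Evx1, of 1109 bp, lay 7314 bp upstream (chr6:52305630-52306738), in the interval towards the Hoxa cluster, and Hoxa13 was nearest to the 2 farthest ones. At Lhx1, 2 of 5 distal peaks lay inside the gene, 1 of them 1388 bp from the nearest TSS (chr11:84523950-84524343) and the other the widest, of 782 bp (chr11:84519695-84520476). Mixl1 had neither a distal peak within 20 kb nor any peak downstream of its TSS peak, over a gap of 49364 bp. Its nearest and widest distal peak, of 414 bp, lay 23537 bp upstream (chr1:180720364-180720777), and both of its distal peaks were nearer to Acbd3 than to Mixl1.

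Among the bHLH genes, the nearest distal peak to Mesp1 lay 5527 bp upstream (chr7:79798953-79799676) and the widest, of 1143 bp, 12782 bp downstream in an intron of Wdr93 (chr7:79780435-79781577). The Mesp1 window also held the TSS peak of its paralogue Mesp2, of 1325 bp, and 1 distal peak nearest to Mesp2. At Msgn1 the nearest lay 7712 bp upstream (chr12:11216241-11217126) and the widest, of 1045 bp, 30118 bp downstream (chr12:11178332-11179376). At Hand2 the nearest and widest was 1 peak of 1699 bp centred 7676 bp downstream of the TSS (chr8:57327810-57329508), with CpG island composition and 80 CpGs. All 6 distal peaks of Hand2 were nearest to Hand2, and 5 more peaks in its window lay at TSSs of non-coding transcripts, 3 of them at those of Hand2os1. For Tbx6 the nearest was the peak 1177 bp upstream described above, the only 1 of its 5 that was nearest to Tbx6, and the widest, of 700 bp, lay 26475 bp upstream (chr7:126754658-126755357) nearest to Mapk3.

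As a group the 60 distal peaks were wider and more CpG-rich than most. Their median width was 526.5 bp, beside 415 bp over the 51618 distal peaks within 50 kb of a reference gene and 380 bp over all distal peaks. Median GC content was 52.2%, beside 48.9% and 47.7%, median CpG o/e was 0.332, beside 0.230 and 0.210, and the repeat-masked share was 8.62%, beside 11.6% and 13.0%. CpG island composition was found in 5 of the 60, namely 2 at Evx1 and 1 each at Wnt3, Lhx1 and Hand2, beside 3.19% of the distal peaks within 50 kb of a reference gene and 2.46% of all distal peaks. Of these 5, 3 lay inside the gene they were assigned to.

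Short sequence matches were sought in the distal peaks on both strands. The patterns were CTTTGAT for TCF/LEF, the factors through which WNT acts, ACAATGG for SOX, ATTTGCAT for OCT, TCAAGGTCA for ESRRB, AGGTGTGA for T-box factors, AATCCACA for FOXH1 and GTCTAGAC for SMAD, both of which act in Nodal signalling, and the consensus named CTCF with up to 1 mismatch. The composite pattern OCT4::SOX2 was ATTTGCAT, 1 free base and ACAATG, with up to 2 mismatches over its 14 fixed bases, and it can overlap the OCT and SOX patterns. A match describes letters and not binding. TCF/LEF matches were present in 4 of the 60 distal peaks, beside 8.55% of all distal peaks, and they lay near Tbx6, Evx1, Msgn1 and Hand2. SOX matches were present in 5, near T, Mesp1, Tbx6, Wnt3 and Msgn1, beside 9.52%. The composite OCT4::SOX2 pattern was found in 1, near Msgn1, beside 0.766%, and the ESRRB pattern in the same peak, beside 3.11%. FOXH1 and SMAD matches were found in 1 peak each, both near Gsc, beside 1.96% and 0.543%. No distal peak held an OCT or T-box match, beside 3.05% and 2.49% of all distal peaks. With counts of 0 to 5, these are descriptions and not differences from the background. With CTTTGAA also allowed, TCF/LEF matches were present in 13 of the 60, beside 18.6% of all distal peaks. CTCF matches were present in 16 of the 60, beside 16.1% of all distal peaks and 19.7% of those within 50 kb of a reference gene, and they occurred near every gene but Hand2. Wider peaks offer more room for a match, and per length of distal peak CTCF matches numbered 46.2 per 100 kb at these genes and 36.1 per 100 kb over all distal peaks.

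The distal peaks with TCF/LEF or composite matches outside exons are shown so that the letters behind these counts can be read. The sequences are GRCm38, plus strand, 5′ to 3′, and capitals mark the TCF/LEF, SOX, ESRRB and OCT4::SOX2 matches, which read as the reverse complement where the match is on the minus strand. CTCF matches, of which the Evx1 peak and the downstream Msgn1 peak held 1 each, are not marked.
Evx1, 42713 bp upstream, chr6:52270772-52271006, 2 TCF/LEF matches: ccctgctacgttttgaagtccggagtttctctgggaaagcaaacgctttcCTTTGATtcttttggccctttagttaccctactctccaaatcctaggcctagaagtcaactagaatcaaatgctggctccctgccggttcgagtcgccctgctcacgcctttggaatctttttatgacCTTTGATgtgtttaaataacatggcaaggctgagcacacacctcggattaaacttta
Hand2, 7676 bp downstream, chr8:57328502-57328608, TCF/LEF: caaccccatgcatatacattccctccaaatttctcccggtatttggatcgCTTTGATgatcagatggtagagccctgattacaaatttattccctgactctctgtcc
Msgn1, 21614 bp downstream, chr12:11187214-11187486, SOX then TCF/LEF: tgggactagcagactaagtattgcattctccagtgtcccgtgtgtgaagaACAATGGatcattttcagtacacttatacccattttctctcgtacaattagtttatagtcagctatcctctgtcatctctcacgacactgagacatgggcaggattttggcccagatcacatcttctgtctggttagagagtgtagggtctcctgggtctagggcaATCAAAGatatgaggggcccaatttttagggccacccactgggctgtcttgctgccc
Msgn1, 7712 bp upstream, chr12:11216652-11216931, ESRRB then OCT4::SOX2: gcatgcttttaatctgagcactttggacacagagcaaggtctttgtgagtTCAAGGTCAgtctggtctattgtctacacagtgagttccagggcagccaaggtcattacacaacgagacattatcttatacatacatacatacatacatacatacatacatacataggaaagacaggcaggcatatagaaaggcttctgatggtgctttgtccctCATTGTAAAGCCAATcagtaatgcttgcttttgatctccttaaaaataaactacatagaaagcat
The 2 matches near Evx1 had the same orientation and lay 128 bp apart, in a peak that was nearer to Hoxa13. The match near Hand2 lay 104 bp from the centre of the CpG-rich downstream peak. Of the 4 distal peaks of Msgn1, 3 held at least 1 match, CTCF included, and together they held 5 of the 9 patterns. Its upstream peak carried the ESRRB match 22 bp and the composite match 190 bp from the peak centre, the latter with 2 mismatches, the most that was allowed.

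In the RefSeq promoters, from 250 bases before to 50 after the start, TCF/LEF matches were present in 2 of 9, those of Mesp1 and Msgn1, beside 3.73% of all promoters. A T-box match was present in the promoter of Mesp1 (1.28% of all promoters) and an OCT match in that of Evx1 (1.74%), and a CTCF match in that of Msgn1 (4.33%). The TCF/LEF, T-box and OCT sites are shown with their match in capitals on the strand of the gene.
Mesp1, TCF/LEF, chr7:79793604-79793632, minus strand: gctcgagccggCTTTGATatgctgatgaa
Mesp1, T-box, chr7:79793567-79793596, minus strand: aggggcccgctTCACACCTagggctcagga
Msgn1, TCF/LEF, chr12:11209134-11209162, minus strand: agatgctaattATCAAAGaggggaaagtg
Evx1, OCT, chr6:52313361-52313390, plus strand: tgcggaattccATTTGCATcctctgtgtct
Both Mesp1 sites lay inside its TSS peak, the TCF/LEF match 31 bases before and the T-box match 5 bases after the RefSeq start. The TCF/LEF match of Msgn1 and the OCT match of Evx1 lay 203 and 126 bases before the start, the CTCF match of Msgn1 130 bases before it, and all 3 outside any peak. With 9 promoters these matches are a description only.

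A further 28 genes of the streak and early mesoderm, listed by their known roles, were measured in the same way. A TSS peak was present at 26 of the 28, beside 70.8% of all protein-coding genes, and Meox1, a homeodomain factor of the somites, and Hes7, a bHLH repressor of the segmentation clock, had none. The wide TSS peaks did not extend to this list, whose median width was 1000.5 bp, below the 1172 bp of the reference genes, with 10 of 26 above it. The widths ran from 220 bp at Eomes, the T-box factor that acts with T in the streak, to 2716 bp at Foxc1. The TSS peak centre lay 140.5 bp downstream at the median, beside 391 bp for the 9 genes above and 18 bp for the reference genes. Of the 26, 19 lay above the reference median, and of the 9, 5 did. The values ran from -296 bp at Nkx1-2, -267 bp at Eomes and -252 bp at Foxf1, which lie upstream of the TSS, to 800 bp at Foxc2, 666 bp at Foxc1, 588 bp at Cdx2 and 571 bp at Mesp2. CpG island composition was found in 17 of 26, a share like the 65.2% of the reference genes. Distal peaks numbered 7.5 per gene at the median, from 1 at Cdx4 and Dll1 to 13 at Tcf15, a bHLH factor of paraxial mesoderm, 11 at Hand1 and 10 each at Cdx2 and Foxc1. Distal peaks were denser near the gene than in its flanks for 21 of 28, of which 19 had a TSS peak, beside 51.1% of the reference genes.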

How the data were processed

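ATAC-seq reads had been aligned by the authors to GRCm38 with STAR 2.6.1c, freed of duplicates with Picard and of reads outside chromosomes 1-19, X and Y. Peaks were called with MACS2 2.1.1.20160309 and those of the dox-treated OCT4-AID samples were merged with BEDTools. The deposited values are the start and end of each region in bp, without counts, scores or signal, so depth is unknown, and whether peaks were called per library is not given in the sources used here. The methods describe the removal of peaks that were called in input samples, blacklisted or above 5 kb, but 11 of the last kind were present here.

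Positions were compared with GENCODE M21 and the GRCm38.p6 sequence with Python 3.11.15, numpy 2.4.6, pandas 2.3.3, scipy 1.17.1 and pysam 0.24.0, and plotted with matplotlib 3.10.9. Motif and peak counting were tested on simulated data. No test was run. All 10 genes are named, as are the nearest and the widest distal peak of each, neighbouring genes nearest to such peaks, and, of the 28 further genes, those without a TSS peak and the 3 with the most distal peaks, with ties. The further genes named for width, position or the fewest distal peaks, and the promoters of Tbx6, Mesp1 and Evx1, were chosen after their values were seen. The genes and lists were chosen with earlier results of these data known. Alternatives were other peak filters, TSS limits, windows, flanks and motif letters. Intervals of medians were 95% binomial order-statistic intervals over the genes. As the genes were listed by name, these intervals describe only the spread of their values.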

Additional observations from a re-analysis of the deposited data

How the results depend on the processing

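No paired analysis was possible because the list holds no value per sample and no result comes from a test. Of 115 recomputed values of 9 results, 105 stayed within 1.5 times a count or within the 95% interval of a median, and 10 moved. This tally is not a measure of robustness. With 1 gene left out, neither a median nor the number of distinct distal peaks could leave these limits. A value could also stay within them while its order beside the reference genes was reversed. With a TSS limit of 500 bp, 5 genes had a TSS peak and 4 of these peaks had CpG island composition, with a median CpG o/e of 0.641 that lay below the 0.689 of the reference genes, as did 0.652 beside 0.703 over 500 bp on each side of the TSS. With a 20-kb window the median of distal peaks per gene was 3 (reference genes 2), with 26 distinct distal peaks and 2 with a TCF/LEF match, and with 100 kb there were 96 and 8, with a median per gene of 8 that lay below the 10 of the reference genes. Counting only distal peaks nearest to the gene left 38 distinct ones, a median of 4 per gene beside 2 over the reference genes. It left 5 genes denser than their flanks, in which all distal peaks were still counted. With CTTTGAA allowed, 13 distal peaks had a TCF/LEF match. Leaving out 1 gene at a time kept the median width between 1580 and 1634 bp, beside 1172 bp over the reference genes. Merging many libraries widens peaks and adds peaks, and a missing peak is not a lack of accessibility. The 10 genes allow no statement about streak genes at large.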
